A study of Arabidopsis thaliana with 12 samples.

Results

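The low-molecular-weight cysteine-rich (LCR) genes of Arabidopsis were examined for CpG methylation in leaf DNA. The members were the protein-coding genes of the 5 nuclear chromosomes whose symbol in the RefSeq annotation of TAIR10.1 is LCR followed by a number, without 10 loci named as plant defensin (PDF) genes or handled with them. This gave 77 LCR genes of 27432 protein-coding genes. The rule uses symbols and loci and no methylation value, although the family was picked with earlier results of these data known. In the annotation, LCR66 also carries the name PDF2.4 and LCR72 the name PDF2.6, and both remained among the LCR genes.

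LCR genes encode small peptides with a signal for secretion and a set of conserved cysteines that pair into disulfide bridges. They belong to the defensin-like peptides of plants, whose best known members, the PDF genes, include antifungal peptides induced by pathogens, and the related SCRL genes are named for their likeness to SCR, the pollen ligand of self-incompatibility in Brassica. Many defensin-like genes are known for expression in pollen, ovules or seeds. In plants, CpG methylation is kept up through DNA replication by MET1. Inside transposons it accompanies silencing together with methylation at other contexts, whereas many long, steadily expressed genes carry CpG methylation alone in the middle of the body and little at the ends.

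The study compared leaves of Arabidopsis ecotype Col-0 (Col-O in the labels) in 12 labelled libraries, of which 4 came from plants given SA-CNPs (salicylic acid in chitosan nanoparticles, added to the medium), 4 from plants inoculated with the powdery mildew fungus Podosphaera xanthii (Px) as drops of spores on the leaves, and 4 from Control plants without either. Plants given both SA-CNPs and Px are also described in the paper, and none of the 12 labels names that combination. The labels name leaf, and the methods describe shoots with the roots cut off, so cells of every leaf tissue were mixed. Enzymatic methyl-seq was used, in which enzymes convert unmethylated cytosines and a read that still shows C counts as methylated. The only table analysed here is 1 pooled report of CpG cytosines, and neither labels nor methods say from which libraries it was put together, so its condition is unknown, no treatment was compared and no value below has a replicate error.

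Levels are given per region as the percentage of calls at its CpG cytosines that were methylated, both strands included, with a 95% Wilson interval that covers counting error only. The 77 genes and the 1000 bp on either side held 6545 different covered CpG cytosines with a median of 62 reads each (5 to 104), against a median of 58 reads over the nuclear chromosomes, where 98.2% of the listed CpG cytosines were covered. Chloroplast DNA, usually taken as unmethylated, had a level of 0.367% (0.3664 to 0.3685%) and serves as the background of calls that escaped conversion. Without replicates no test over genes was possible, and groups of genes are described by counts and by medians, whose 95% intervals were read from the ranks. Strand and exons are not in the annotation used here, so the side of a gene with the smaller coordinates is called the lower flank and the other the upper flank, and neither can be named promoter.

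The bodies of the LCR genes carried next to no CpG methylation. Their median body level was 0.381% (0.263 to 0.544%, n = 76), against 4.75% (4.50 to 5.02%, n = 27174) in the other protein-coding genes, and the chloroplast background lies within the interval of the LCR median. LCR genes are short, with a median of 584 bp (274 to 1558 bp), against 2081 bp in the other protein-coding genes, and long genes are where body methylation is usually found. The 4212 other genes of up to 1000 bp with a covered CpG in the body had a median body level of 0.467% (0.447 to 0.491%), which lies within the interval of the LCR median.

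Of 76 LCR bodies, 65 (85.5%) were under 5%, where 50.6% of all protein-coding genes had such a body. The share was 74.2% in the short genes, 85.2% in the 27 SCRL genes and 100% in the 11 PDF genes. At the other end, 4 LCR bodies (5.26%) reached 25% or more, against 21.1% of all protein-coding genes, and these were LCR27, LCR25, LCR47 and LCR40. A single LCR body (1.32%), that of LCR27, was at 75% or more, a class that held 14.4% of the short genes and 3.85% of all other protein-coding genes.

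**Figure D1:**
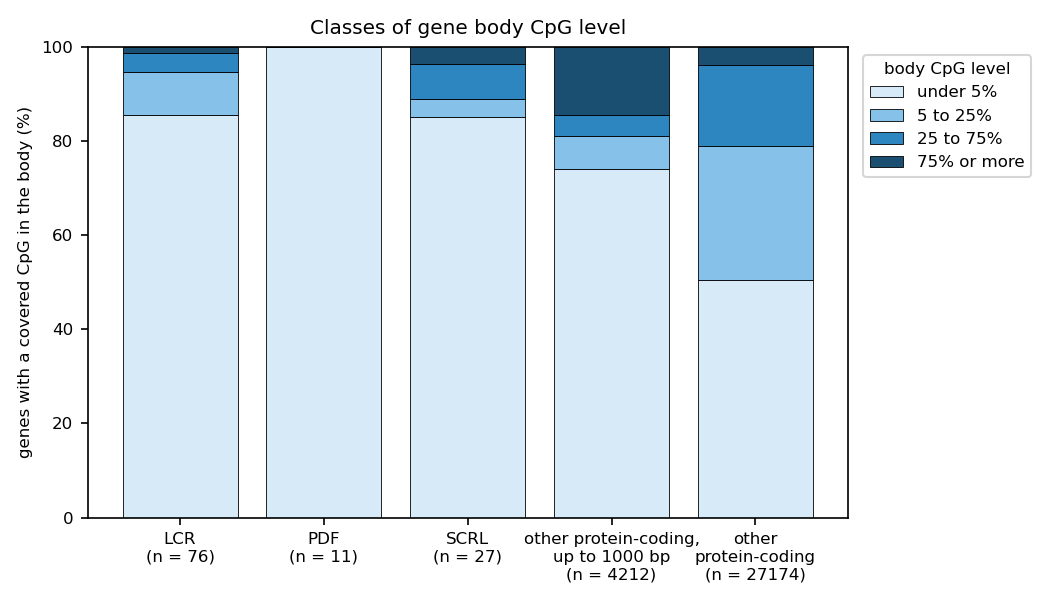
Share of genes (y axis, percent of genes with a covered CpG in the body) in 4 classes of body CpG level, for LCR genes, PDF genes, SCRL genes, other protein-coding genes of up to 1000 bp and all other protein-coding genes. Bodies under 5% make up 85.5% of LCR genes, and the darkest class, 75% or more, is thinner in LCR genes (1.32%) than in the short genes (14.4%).

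Most low bodies could not be told from the chloroplast background. No methylated call was found in 8 bodies (LCR60, LCR81, LCR39, LCR2, LCR85, LCR28, LCR6 and LCR12), with 227 to 1850 calls each, and the limit that a count of 0 allows (3 counts of the total) is 1.32% at the shallowest and 0.162% at the deepest of them, where the Wilson intervals end at 1.66% and 0.207%. In 54 of the 76 bodies the interval held the chloroplast level, in 3 it lay below and in 19 above. Of these 19, 8 were still under 5%, and the highest of them was LCR55 with 16 methylated calls of 1071 (1.49%, 0.922 to 2.41%). LCR58 stood exactly on the class limit, with 162 methylated calls of 3240 (5%, 4.30 to 5.80%). Few CpG cytosines stood behind some of these values. The bodies held 4 to 62 covered CpG cytosines with a median of 19, where the strands of a CpG site count as separate cytosines. The density of 3.38 CpG cytosines per 100 bp was lower than the 5.87 of the short genes. It was near the 3.82 of the PDF and the 3.68 of the SCRL genes.

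One gene could not be given a body level. LCR82 (AT2G04425, chromosome 2, 1536975 to 1537504) has no CpG cytosine listed in its 530 bp. Its flanks were at 69.7% (68.4 to 70.9%, 82 CpG cytosines) on the lower and 52.1% (49.6 to 54.5%, 24 CpG cytosines) on the upper side, so its level over body and flanks, 65.6%, is a level of its surroundings alone.

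Taken with their flanks, the genes spread out. The level over body and flanks had a median of 6.20% (0.677 to 12.6%, n = 77), and a range from 0.188% to 67.0%. The other protein-coding genes had a median of 8.80% (8.59 to 9.00%), the short genes 5.80%, the SCRL genes 8.92% and the PDF genes 1.64%, and all these medians lie inside the LCR interval. Pseudogene loci, under which the annotation also lists transposons, had a median of 86.4%, above every LCR gene. Under 5% were 36 of 77 LCR genes (46.8%, against 38.6% of all protein-coding genes) and at 25% or more were 17 (22.1%, against 18.5%). Of the short genes, 48.1% were under 5%, close to the LCR share, 14.6% were from 25% to 75% and 9.19% at 75% or more. The median depended on where the flanks were drawn, at 0.914% with flanks of 500 bp and 10.8% with flanks of 2000 bp, and at 1.39% when flank cytosines inside other annotated loci were left out.

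**Figure D2:**
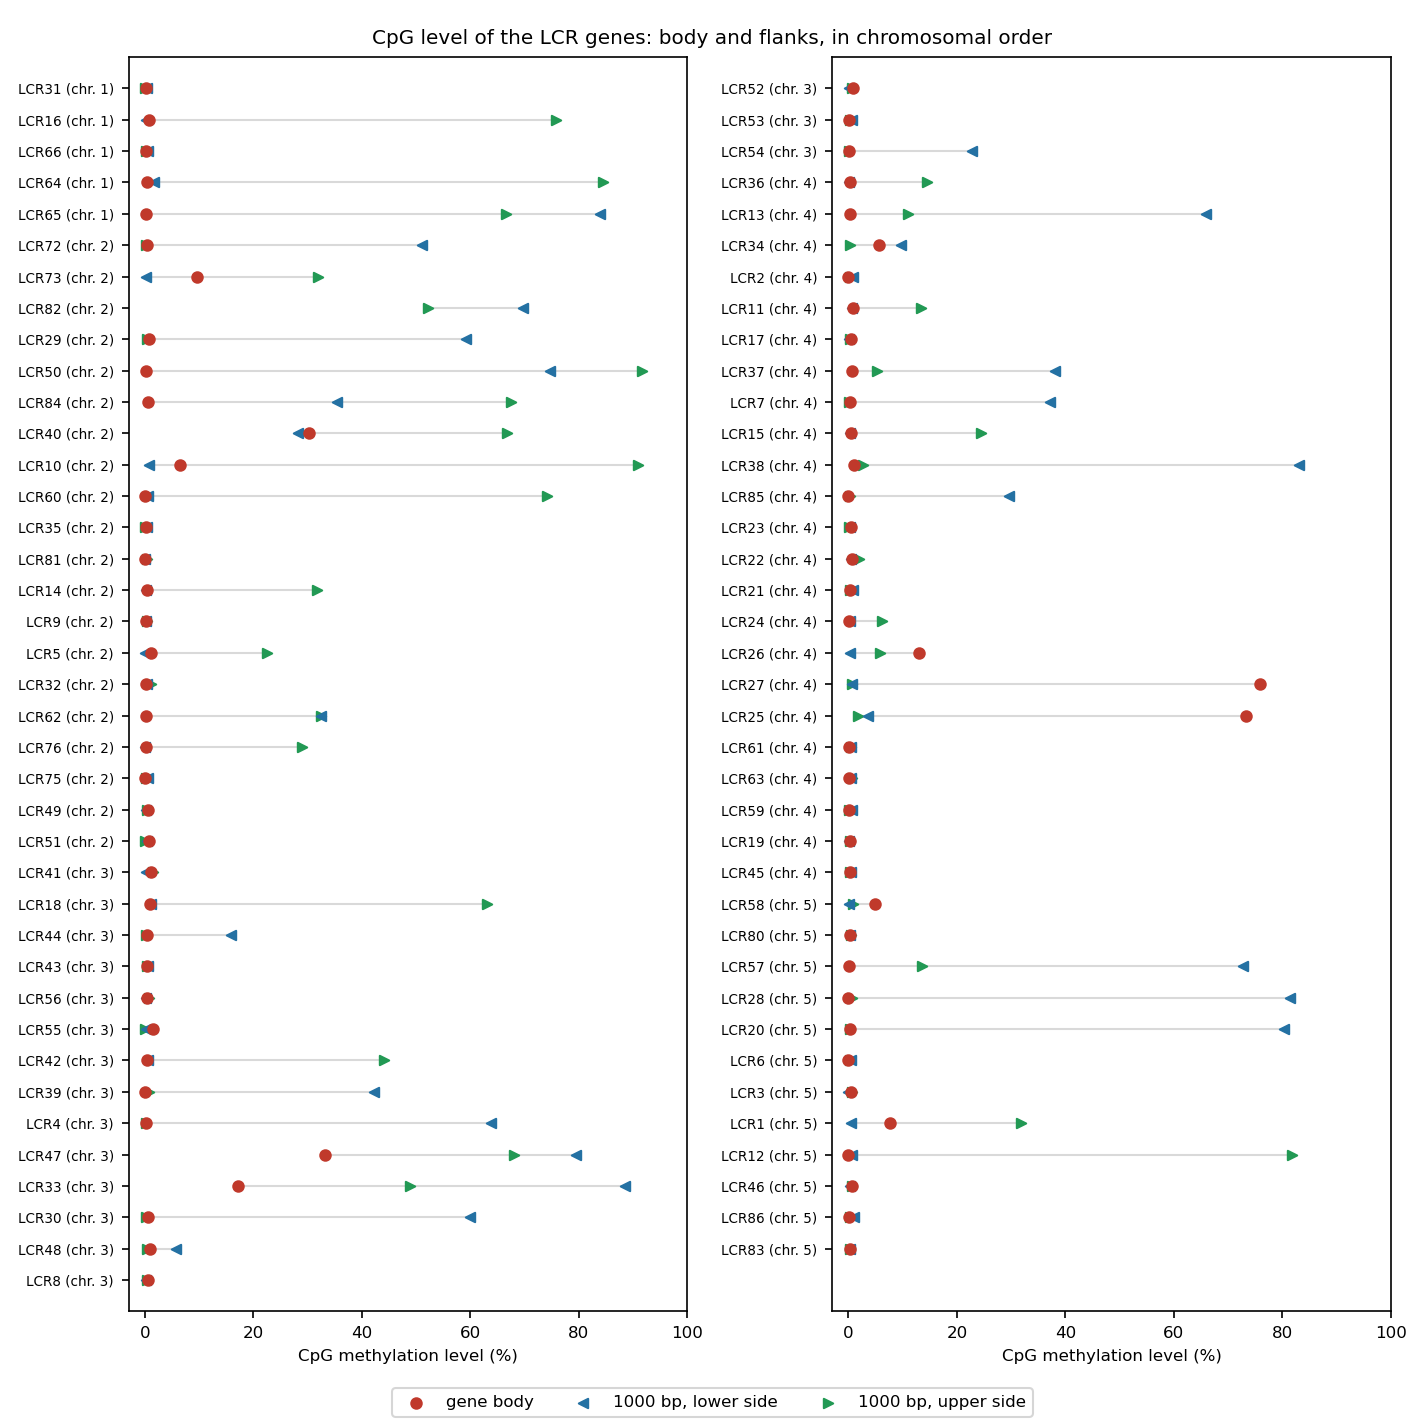
CpG methylation level (x axis, percent) of the body (red circles) and of the 1000 bp on the lower (blue) and upper (green) side for each of the 77 LCR genes, in chromosomal order down the left and then the right panel. Most red circles sit at the left edge, 32 genes have a triangle at 25% or more, and LCR27 and LCR25 are the only genes whose body lies above 70%.

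The lowest levels over body and flanks belonged to LCR31 (AT1G28335), LCR35 (AT2G22121), LCR23 (AT4G29273) and LCR51 (AT2G41997). LCR31 had 12 methylated calls of 6397 (0.188%, 0.107 to 0.328%), LCR35 had 10 of 4994 (0.200%), LCR23 had 15 of 7249 (0.207%) and LCR51 had 22 of 10193 (0.216%). All 4 levels were below the chloroplast level. In all, 32 of 76 LCR genes (42.1%) had body and both flanks under 5%, where 28.5% of all protein-coding genes did. That count falls to 20 when flanks of 2000 bp are used. How many short genes met the same rule was not counted. For the level over body and flanks together, 48.1% of the short genes were under 5%, against 46.8% of the LCR genes.

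Flanks were methylated more often than bodies. At least 1 flank of 25% or more was found in 32 of 77 LCR genes (41.6%, against 33.8% of all protein-coding genes), and both flanks in 8 (10.4%, against 6.80%). The short genes were close for at least 1 flank (40.7%) and higher for both (13.6%). The 8 LCR genes were LCR65, LCR82, LCR50, LCR84, LCR40, LCR62, LCR47 and LCR33. The pairing of a body under 5% with at least 1 such flank occurred in 25 of 76 LCR genes (32.9%, against 13.2% of all protein-coding genes). Of those with both flanks covered, it was found in 907 short genes (21.5%), in 3 of 11 PDF genes (27.3%) and in 10 of 26 SCRL genes (38.5%). The share in the SCRL genes was thus above that in the LCR genes. Whether these shares differ beyond the choice of genes was not tested.

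Of 154 flanks, 40 (26.0%) were at 25% or more, against 20.4% of the flanks of the other protein-coding genes and 27.5% of those of the short genes. Among these 40, 26 reached 50% and 11 reached 75%. Neighbouring LCR genes share some of these flanks, such as the DNA between LCR64 and LCR65 and between LCR42 and LCR39. The other 114 flanks were mostly empty, with 93 under 1%.

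LCR50 (AT2G12465, chromosome 2, 5055415 to 5055880) had the largest difference between body and a flank. Its body had 3 methylated calls of 1168 (0.257%, 0.0874 to 0.752%), its lower flank was at 74.6% (72.9 to 76.2%) and its upper flank at 91.6% (90.2 to 92.8%). The nearest annotated locus is 3802 bp away. LCR65 (AT1G73607, chromosome 1, 27676182 to 27676888) had 2 methylated calls of 1503 in its body (0.133%, 0.0365 to 0.484%), between a lower flank at 83.9% (81.9 to 85.7%) and an upper flank at 66.5% (64.3 to 68.7%). Its partner LCR64 (AT1G73603, chromosome 1, 27674288 to 27674976) shared the methylated DNA on 1 side only, with a body at 0.336%, a lower flank at 1.69% and an upper flank at 84.4% (82.5 to 86.2%). The 1205 bp between these genes were at 78.8% (76.7 to 80.7%), and 27 of 36 CpG cytosines there were above 75%. The steps from the bodies to the 5 methylated flanks of these genes were far larger than the counting error, whereas that to the lower flank of LCR64 was small (0.143 to 0.783% in the body, 1.20 to 2.37% in the flank).

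Several genes were methylated on 1 side and bare on the other. LCR12 (AT5G48905, chromosome 5, 19831255 to 19831917) had no methylated call of 956 in its body, 0.680% in the lower and 81.8% (80.02 to 83.50%) in the upper flank. LCR28 (AT5G42797, chromosome 5, 17163196 to 17163574) had none of 473 in its body, 81.3% (79.4 to 83.1%) in the lower and 0.614% in the upper flank. LCR38 (AT4G19905, chromosome 4, 10794011 to 10794811) stood at 1.02% in the body, 83.1% (81.0 to 85.1%) in the lower and 2.73% in the upper flank. LCR20 (AT5G47075, chromosome 5, 19122503 to 19122866), among the 8 highest genes over body and flanks at 45.3%, had 2 methylated calls of 706 in the body (0.283%) and 80.2% (78.7 to 81.7%) in the lower, but 0.305% in the upper flank. Over the 77 genes the levels of the lower and upper flanks were only loosely related (Pearson's r = 0.20, Spearman's rho = 0.13), and for the body level and the higher of both flanks r was 0.0043 and rho 0.14 (n = 76). These coefficients are descriptions, since all genes were read from the same pool.

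The methylation began some distance out. In 39 of the 40 methylated flanks, all but the lower one of LCR84, a CpG was above 75%, and the first lay 3 to 886 bp from the gene end, with a median of 333 bp and 4 within 100 bp. Summed over the 40 flanks, the level was 24.4% in the first 100 bp, 51.4% in the next, 63.5% from 200 to 300 bp and 74.4% from 500 to 600 bp. These flanks were picked for their level, and flanks of other genes picked in the same way were not profiled. Over both sides of all 77 genes the first 100 bp were at 6.06% and the next at 17.6%, against 15.1% and 14.4% in the short genes and 6.81% and 8.18% in all other protein-coding genes. Inside, the LCR bodies, cut into 10 equal parts with both ends summed, ran from 1.96% to 4.96%, against 10.5% to 13.1% in the short genes and 6.27% to 23.7% in the other protein-coding genes, with the highest part of LCR and of other protein-coding genes at the middle. These sums give genes with many CpG cytosines more weight than the medians do, and 90.3% of the methylated calls in LCR bodies came from 11 genes.

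**Figure D3:**
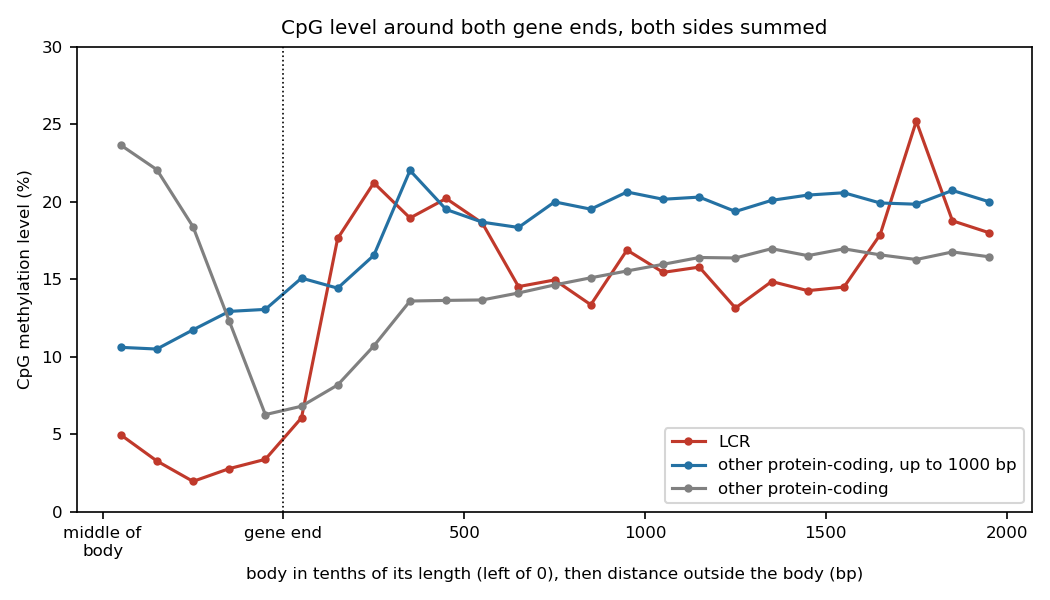
CpG level (y axis, percent) from the middle of the gene body to 2000 bp outside, both sides summed, in 10 equal parts of the body and then bins of 100 bp (x axis), for LCR genes, other protein-coding genes of up to 1000 bp and all other protein-coding genes. The LCR line stays under 5% in the body, is at 6.06% in the first 100 bp and steps to 17.6% in the next.

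Most methylated flanks held no other annotated locus. In 28 of the 40, no other locus of the annotation reached into the flank, and in 2 a pseudogene locus did. Of the 114 flanks under 25%, 41 held no other locus and 9 were reached by a pseudogene locus. The share without another locus was not counted for flanks of other genes. Transposon pieces that the annotation does not list as loci could not be seen here. A pseudogene locus lay within 2000 bp of 13 of 77 LCR genes (16.9%, against 9.47% of all protein-coding genes and 14.5% of the short genes). Of the flanks that such a locus reached, 2 of 11 beside LCR genes were at 25% or more (18.2%, against 49.7% of 1688 such flanks of the other protein-coding genes), and of those without one 38 of 143 were (26.6%, against 19.5%). For the short genes the shares were 59.8% of 425 flanks with such a locus and 25.8% of those without one, the latter close to the LCR share. The count of 11 flanks is small, and those of the tandem genes LCR23, LCR22 and LCR21 on chromosome 4 lie beside the same pseudogene loci. The upper flank of LCR59 and the lower flank of LCR19 also share a pseudogene locus, AT4G30072. This locus and those beside LCR23, LCR22 and LCR21 (AT4G29276 and AT4G29281) are annotated as transcribed pseudogenes. How many loci beside other genes are of that kind was not counted, so these shares do not compare flanks beside transposons.

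LCR10 (AT2G15535, chromosome 2, 6778191 to 6778879) was 1 of the 2 genes with a methylated flank that a pseudogene locus reached, AT2G15540 at 78 bp. Its upper flank was at 90.9% (89.9 to 91.8%), with the first CpG above 75% at 3 bp from the gene end, whereas its lower flank was at 0.735% (0.430 to 1.25%). The body was at 6.56% (5.30 to 8.10%), and all 4 of its 22 CpG cytosines at 25% or more lay 612 to 636 bp from the lower end, on the side of the methylated flank, with 40.2% over those 4 and 0.490% over the other 18. LCR33 (AT3G43083, chromosome 3, 15075700 to 15077257), the other such gene, lies 620 bp from AT3G43080 and was the highest of all LCR genes over body and flanks, at 67.0% (65.8 to 68.2%). Its lower flank was at 88.4% and its upper at 48.9%, while its 1558 bp body was at 17.2% (14.5 to 20.3%), where a single CpG, both strands at 80.5% and 86.5%, was methylated among 10 CpG cytosines.

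**Figure D4:**
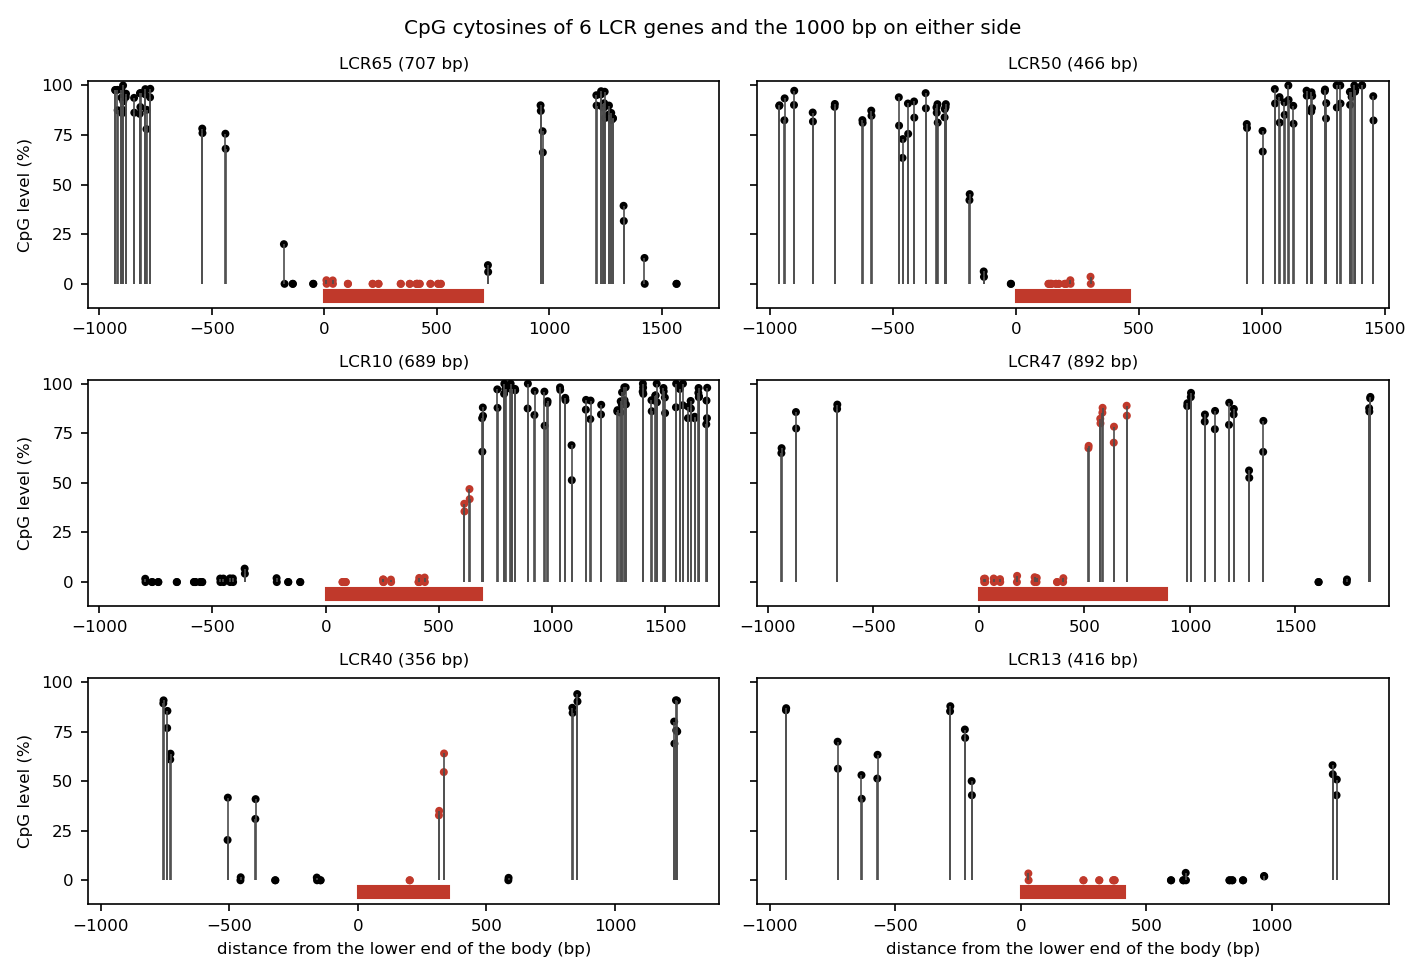
CpG level of each cytosine (y axis, percent) along 6 LCR genes, against distance from the lower end of the body (x axis, bp); red bars and red points mark the body, black points the 1000 bp on either side. The bodies of LCR65 and LCR50 are at or near 0 between methylated flanks, LCR10 and LCR47 change from unmethylated to methylated inside or at the edge of the body, and LCR40 and LCR13 hold many cytosines of intermediate level.

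Methylated CpG cytosines inside bodies were few and clustered. Of 1599 body CpG cytosines, 36 were above 75% and 34 between 25% and 75%, and all 70 lay in 11 genes. The other 65 genes had none. Those above 75% made up 2.25%, against 12.4% in the short genes and 15.5% in the other protein-coding genes. Those between 25% and 75% made up 2.13%, near the 2.5% of the short genes, against 3.1% in the other protein-coding genes. How many other genes had no such body cytosine was not counted. LCR47 (AT3G42473, chromosome 3, 14607080 to 14607971) was unmethylated over 18 CpG cytosines (0.784%) and methylated over 10 that lay 519 to 701 bp from the lower end (79.2%), which made a body level of 33.2% (31.0 to 35.4%), with flanks at 79.5% and 68.0%. LCR40 (AT2G14935, chromosome 2, 6431471 to 6431826) had only 6 body CpG cytosines, of which 4 near the upper end were at 46.8% and 2 had no methylated call of 126, for a body level of 30.3% (25.7 to 35.2%). LCR73 (AT2G02147, chromosome 2, 546596 to 547156) had 4 of 26 at 44.4% within 8 bp and a body level of 9.53% (8.10 to 11.2%), and it overlaps the annotated gene AT2G02148. LCR1 (AT5G48543, chromosome 5, 19674358 to 19675465) had 6 of 30 at 43.4% within 23 bp near its upper end and a body level of 7.66% (6.55 to 8.94%), and it overlaps AT5G48545. Overlap with another annotated gene was also found for LCR60, LCR76, LCR43, LCR54 and LCR57, all with bodies under 5%. The body stretches of LCR58 (52.4% over 4), LCR34 (32.8% over 3) and LCR10 were as short.

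The 2 bodies above 70% were neighbours. LCR23, LCR22, LCR21, LCR24, LCR26, LCR27 and LCR25 form a tandem group on chromosome 4 (14425441 to 14436717), the largest of 14 such groups with under 20000 bp between members, which hold 38 of the 77 genes. Ordered along the chromosome, the body levels were 0.442% in LCR23, 0.746% in LCR22, 0.383% in LCR21, 0.177% in LCR24, 13.0% in LCR26, 75.8% in LCR27 and 73.2% in LCR25. All flanks of the group were at 6.14% or less, and the DNA between members was at 0.328% to 2.95%. The first 4 genes had bodies under 1%, and the last 3 did not.

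In LCR27 (AT4G29300, 14433991 to 14434524) 12 of 14 body CpG cytosines were methylated, at 67.2% to 93.5%, and they lay 90 to 287 bp from the lower end with a joint level of 86.4%. The remaining CpG, beyond that stretch, had 1 methylated call of 108 (0.926%). The body level was 75.8% (72.9 to 78.5%), against 0.731% (0.451 to 1.19%) in the lower and 0.630% (0.382 to 1.04%) in the upper flank. In LCR25 (AT4G29305, 14436147 to 14436717) 16 of 18 were methylated, at 78.9% to 92.3%, 26 to 286 bp from the lower end, with a joint level of 84.3%, and the remaining CpG had no methylated call of 136. Its body level was 73.2% (70.4 to 75.8%), against 3.65% (3.04 to 4.38%) in the lower and 1.75% (1.27 to 2.40%) in the upper flank. That lower flank held 2 CpG cytosines above 75%, the nearest 23 bp from the gene end, so the methylation of LCR25 was not confined to the annotated body. In LCR26 (AT4G29290, 14432640 to 14433084) 5 of 24 were at 25.9% to 55.6%, 133 to 206 bp from the lower end, none of them above 75%, for a body level of 13.0% (11.3 to 14.8%). A body above 70% with both flanks under 5% was found in 45 protein-coding genes (0.166%), LCR27 and LCR25 among them. That limit was drawn after the levels of these 2 genes were seen, so the count describes them and LCR25 would not pass a limit of 75%.

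**Figure D5:**
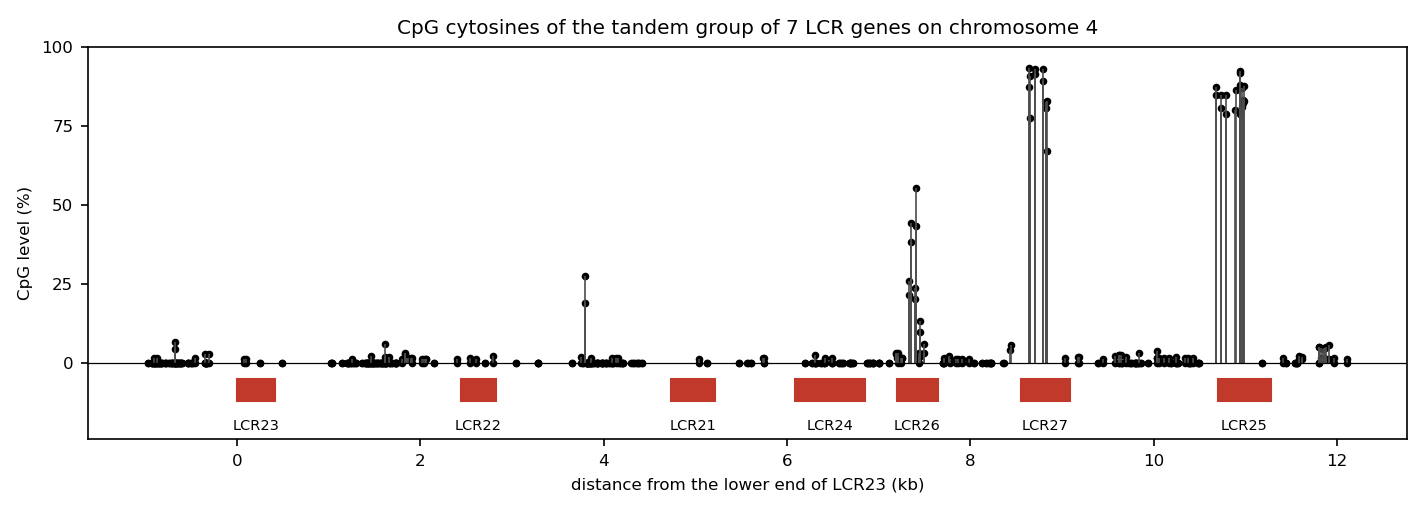
CpG level of each cytosine (y axis, percent) along the tandem group of 7 LCR genes on chromosome 4, against distance from the lower end of LCR23 (x axis, kb), with gene bodies as red boxes. LCR27 and LCR25 hold compact stretches of highly methylated CpG cytosines, LCR26 holds a stretch of intermediate ones, and nearly all else is close to 0.

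The other tandem groups gave no second case of that kind. LCR61, LCR63, LCR59 and LCR19 on chromosome 4 (14694239 to 14700599) had bodies at 0.0996% to 0.237% and flanks at 0.614% or less. LCR8, LCR52, LCR53 and LCR54 on chromosome 3 (22641713 to 22648168) had bodies at 0.0745% to 0.843%, and among their flanks only the lower one of LCR54 stood out, at 22.7%. Between members of tandem pairs the DNA could be methylated, as between LCR42 and LCR39 (37.5%, 34.7 to 40.3%) and LCR76 and LCR75 (26.6%, 25.7 to 27.5%), or bare, as between LCR8 and LCR52 (no methylated call of 805) and LCR72 and LCR73 (0.242%). Neighbouring LCR genes therefore lay beside DNA of very different levels.

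The wider surroundings also differed among members. The DNA within 50000 bp on either side, without the gene and its flanks, had a median level of 17.5% around LCR genes and 14.3% around other protein-coding genes. The median was 15.7% around the short genes, 18.1% around SCRL genes and 18.8% around PDF genes. This surrounding DNA was at 50% or more around 7 LCR genes (9.09%, against 5.17% of all protein-coding genes and 11.6% of the short genes), namely LCR29, LCR50, LCR84, LCR40 on chromosome 2 and LCR47, LCR33 and LCR30 on chromosome 3. In all 7 at least 1 flank was at 25% or more. That is common in such surroundings, where only 9.89% of the other protein-coding genes and 6.44% of the short genes with both flanks covered had no such flank. Even there 4 of 7 bodies were under 5% (LCR29 at 0.693%, LCR50 at 0.257%, LCR84 at 0.491% and LCR30 at 0.528%), whereas 19.7% of the other protein-coding genes and 21.4% of the short genes in such surroundings had a body under 5%. LCR84 (AT2G14365, chromosome 2, 6088292 to 6088813) was among the 8 highest over body and flanks, at 48.6%, with 35.3% (30.3 to 40.7%, 4 CpG cytosines only) in the lower and 67.4% (65.8 to 69.0%) in the upper flank. Over the members, surroundings and the level over body and flanks had r = 0.58 and rho = 0.26 (n = 77), surroundings and body level r = 0.12 and rho = 0.026 (n = 76), and the ranks of the first pair followed each other less closely than the values did.

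By chromosome the medians over body and flanks ran from 24.2% for the 5 genes of chromosome 1 to 1.64% for the 12 of chromosome 5, with 13.3% for 20 genes of chromosome 2, 5.11% for 17 of chromosome 3 and 4.81% for 23 of chromosome 4. The lowest gene of each chromosome was at 0.188% to 0.274% and the highest at 27.4% to 67.0%, so the ranges overlapped throughout.

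Cytosines of the LCR loci were mostly either unmethylated or methylated. Of the 6545 CpG cytosines, 5406 (82.6%) were under 25%, 940 (14.4%) above 75% and 199 (3.04%, 2.65 to 3.49%) in between, for an overall level of 13.6% (13.5 to 13.7%). These shares were close to those of protein-coding genes at large: with cytosines counted once per gene, 14.0% were above 75% and 2.996% in between at LCR genes, against 14.1% and 3.04% at the other protein-coding genes and 16.5% and 3.39% at the short genes. The nuclear chromosomes as a whole, transposons included, had 27.6% above 75% and 3.81% in between. The intermediate cytosines were unevenly spread. LCR13 (AT4G09795, chromosome 4, 6169600 to 6170015) had 13 of 42 (31.0%) and LCR40 11 of 36 (30.6%), followed by LCR84 with 14.1%, LCR47 with 13.8% and LCR82 with 11.3%. In LCR13 they lay in the flanks, at 66.0% (62.6 to 69.2%) on the lower and 11.0% (9.28 to 13.0%) on the upper side, around a body with 1 methylated call of 459. In a pool of unknown libraries an intermediate cytosine can mean partial methylation in every plant, in some cells or in some libraries, which cannot be told apart here.

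In nearly all CpG pairs both strands fell into the same class. Among 3271 CpG pairs with both strands covered, 448 had both strands above 75%, 2699 both under 25%, 75 both from 25% to 75% and 0 one strand above 75% with the other under 25%. The median difference between strands was 0 points and the 95th percentile 7.85 points. A difference over 25 points occurred once, in the lower flank of LCR29, at 48.0% of 25 reads and 77.1% of 35 reads.

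The related PDF and SCRL families gave similar body levels. The 11 PDF genes had a median body level of 0.160% (0.0678 to 0.464%) and no body at 5% or more, and their levels over body and flanks ran from 0.177% in PDF1.2, a jasmonate-induced defensin gene, to 19.6% in PDF2.5. The 27 SCRL genes had a median body level of 0.559% (0.253 to 0.750%), and their levels ran from 0.140% in SCRL17 to 86.7% in SCRL9, whose body and flanks alike were at 86.0% to 87.0%. No LCR gene was methylated throughout in this way. The intervals of the body medians of all 3 families overlap.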

How the data were processed

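DNA of Arabidopsis leaves was sequenced after enzymatic conversion. According to the methods, the authors used Trimmomatic for filtering, Bismark with Bowtie 2 for alignment to TAIR10.1, kept reads with a single match, removed duplicates, trimmed ends with methylation bias and wrote a cytosine report. The authors deposited raw counts of methylated and of unmethylated reads per CpG cytosine and strand, not normalized and pooled over libraries. Unique mapping leaves repeats and near-identical copies less well covered, and every covered cytosine had at least 5 reads. Which libraries entered the pool is not given, and no condition was read from the name of the table. CHG, CHH and single libraries were not analysed here.

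Gene positions, symbols and biotypes came from the RefSeq annotation of TAIR10.1. Levels were methylated over all calls with 95% Wilson intervals, which treat the calls of a read as independent, and medians carry intervals from the ranks. Cytosines with at least 5 reads were used. The median of 62 reads per member cytosine gives little precision for any 1 cytosine, which is why regions were used. The related lists were symbols PDF with a number and SCRL with a number, the PDF list with the loci set apart by the choice of LCR genes, and other genes of up to 1000 bp stood for genes of like length. Genes named were the 8 highest and 4 lowest over body and flanks, the 8 highest bodies with at least 4 covered CpG cytosines, the 5 largest differences between body and a flank and between flanks, the 5 largest shares of cytosines from 25% to 75% among genes with at least 20, the largest tandem group, genes without a covered body CpG, and the highest and lowest PDF and SCRL gene. Others, such as those in counts of 8 or fewer and the further tandem pairs, were named after their values were seen. The members and lists were chosen with earlier results of these data known.

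The planned profile by strand and the planned description of the proteins could not be made with the annotation used here. Alternatives tried were coverage minimums of 1 and 10 reads, an upper coverage limit at the 99.9th percentile (195 reads), summing both strands, the mean of cytosine levels, flanks of 500 and 2000 bp or without other annotated loci, the body alone, and other thresholds and distances. The scripts ran under Python 3.11.15 (pandas 2.3.3, numpy 2.4.6, matplotlib 3.10.9, scipy 1.17.1) and were tested on simulated data.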

Additional observations from a re-analysis of the deposited data

How the results depend on the processing

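Of 41 comparisons with an alternative, 35 gave counts within 1.5 times of the value reported or values within its interval, and 6 did not. Of the 35, 14 could not have moved, as no covered cytosine had under 5 reads, no member cytosine exceeded 195 reads and summing strands leaves the level of a region as it is, so 21 of 27 remain. The LCR genes with body and both flanks under 5% numbered 20 in place of 32 with flanks of 2000 bp. The median level was 0.381% over the body alone, in place of 6.20% over body and flanks, and although inside its wide interval it also ranged from 0.914% (flanks of 500 bp) to 10.8% (flanks of 2000 bp). Bodies past the threshold numbered 2 at 50% in place of 4 at 25%. The share of intermediate cytosines was 4.37% with limits of 20% and 80%, and 2.13% in the body alone, in place of 3.04%. A pseudogene locus lay within 5000 bp of 28 genes, in place of 13 within 2000 bp. A coverage minimum of 10 reads left the counts of genes as reported. No paired analysis was possible because the table is 1 pool of libraries and no groups of samples were compared. Depth limits the bodies with few CpG cytosines most, where a count of 0 allows up to 1.32% (3 counts of the total).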
